A study of Homo sapiens with 60 samples.

Results

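Cells of HepG2, a human cell line from a liver tumour in which many hepatocyte genes remain on, received an ethanol extract of Coptidis Rhizoma at 11.2 µg/mL for 24 h, the lowest of the 3 doses of this extract. They are set against HepG2 cells that received an ethanol extract of Zizyphi Fructus for 24 h at 20, 100 or 500 µg/mL. The comparison holds 8 of the 60 RNA-seq libraries of the series, taken by their labels: the 2 libraries of the Coptidis low dose (replicates 2 and 3) and all 6 Zizyphi libraries (replicates 2 and 3 of each dose), pooled. The other libraries of the series hold HepG2 cells with further herbal extracts or formulas, or vehicle. All 8 libraries carry set number 11 in their titles, whereas the 3 vehicle libraries (DMSO) carry a set name of their own. Set and treatment are therefore not mixed up here as they are against vehicle, but the cells set against Coptidis received another plant extract and were not untreated. The titles of set 11 give one batch letter (BatchD) and the descriptions another (BatchC). The labels do not say that replicates came from separate cultures, so the p-values rest on the scatter among libraries, part or all of which may be technical. The 2 higher Coptidis doses, 56 and 280 µg/mL (2 libraries each, same set), are used below to follow the low-dose differences with dose. By the dose rule of the series the highest dose was the one that inhibited growth by 20%, so that the low dose lay well under it.

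Coptidis Rhizoma is the rhizome of goldthread, a source of isoquinoline alkaloids of which berberine is the best known. Berberine is a lipophilic cation that collects in mitochondria and inhibits complex I of the respiratory chain in isolated preparations and cells. The human mitochondrial genome is a small circle that encodes 2 ribosomal RNAs, 22 transfer RNAs and 13 proteins of the respiratory chain. Its heavy strand is transcribed as a long precursor that starts near the rRNA genes and is cut into single RNAs, largely at the tRNAs that lie between them, while the light strand encodes a single protein, ND6. All other mitochondrial proteins are encoded in the nucleus. Cells with disturbed mitochondria, too few amino acids or unfolded proteins share a nuclear answer, the integrated stress response, in which the transcription factor ATF4 raises genes of amino acid supply. The aryl hydrocarbon receptor (AhR), a ligand-activated transcription factor, raises CYP1A1 and other genes of drug oxidation when planar aromatic compounds bind it.

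Library totals of the 8 libraries ran from 20259285 to 28165495 counts. edgeR tested 16675 genes and called 4091 of them at an adjusted p under 0.05, which is 24.5% of the genes tested. Of these, 2291 genes (13.7%) were higher and 1800 (10.8%) were lower in the Coptidis low dose. Calls within the gene lists below are to be read beside these shares. Most differences were small, and 189 genes (1.13%) were called with at least a 2-fold difference. The count rests in part on Coptidis replicate 3: without it 2003 genes were called, and without replicate 2, 3164. List counts given below without a replicate stand beside these lower totals, so a smaller count there is not by itself a trait of that list. Against the 2 libraries of the Zizyphi high dose alone the count of genes called was 2677. Replicates of a dose were not the same library deposited again: their counts differed beyond sampling noise in all 4 groups. Among the 3 Zizyphi doses that are pooled, edgeR called 1 gene, ASNS (adjusted p 0.000716), or 0.006% of those tested. Before adjustment 387 of the 16675 genes had p under 0.05, fewer than chance alone would give, and DESeq2 called 1 gene. The test was thus a cautious one and does not show the doses to be alike. With genes of low counts kept in, edgeR called 110. Levels below are CPM, a gene's counts scaled to a common library size after TMM scaling, and differences are log2 fold changes of the Coptidis low dose over the mean of the 3 Zizyphi doses, with SE.

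Markers of hepatocytes were expressed in both groups, and of 8 tested 4 were lower in the Coptidis low dose and none higher (median -0.15). The 4 were FGB (-0.66), APOA1 (-0.31), TF (-0.27) and AFP (-0.19), and the call of APOA1 was lost without Coptidis replicate 2 (adjusted p 0.544). ALB, the plasma protein albumin, averaged 10441 ± 551 CPM in the Coptidis low dose and 11222 ± 318 CPM in the Zizyphi libraries (SD, n = 2 and 6) and was not called (adjusted p 0.0827). Summed over 8 hepatocyte markers, 42196 to 45964 CPM were found in the Coptidis low dose and 43237 to 46910 CPM in the Zizyphi libraries. The defining fibroblast genes COL1A2 and DCN, the endothelial genes KDR, TEK and CLEC14A and the blood cell genes PTPRC, CD3E and HBB had no counts in either group. Summed over the 6 fibroblast markers, 2 of which could be tested, 11.0 to 14.0 CPM were found in the Coptidis low dose and 9.54 to 12.0 CPM in the Zizyphi libraries, nearly all of it PDGFRB (adjusted p 0.0871). Over the 6 endothelial markers, 3 of them tested and none called, the sums were 3.89 to 4.03 CPM in the Coptidis low dose and 3.68 to 4.94 CPM in the Zizyphi libraries. LYZ carried nearly all of the summed blood cell list, 1526 to 1589 CPM in the Coptidis low dose and 1227 to 1466 CPM in the Zizyphi libraries (LYZ log2 fold change 0.22, adjusted p 0.0102, and 0.181 without Coptidis replicate 3). The part of these markers in the results was not tested.

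The largest response by amount of RNA was in the 2 mitochondrial rRNAs. They took 11.8 and 11.6% of all counts in the 2 Coptidis low-dose libraries, against 2.41 to 2.61% (median 2.59%) in the 6 Zizyphi libraries. The groups did not overlap, and the 3 Zizyphi doses lay close together, with means of 2.51, 2.59 and 2.58% from the low to the high dose. The 13 mitochondrial mRNAs moved the other way, at 4.04 and 4.22% of counts in the Coptidis low dose against 6.47 to 6.83% (median 6.61%) in the Zizyphi libraries. The ratio of rRNA to mRNA counts was 2.83 ± 0.128 in the Coptidis low dose and 0.385 ± 0.00798 in the Zizyphi libraries (SD, n = 2 and 6), 7.34 times as high. Taken over all 37 genes of the mitochondrial genome, the share was 15.8 ± 0.0307% in the Coptidis low dose and 9.20 ± 0.216% in the Zizyphi libraries, a difference of 6.61 percentage points. Each of these 4 quantities, and each rRNA alone, had an exact two-sided permutation p of 0.0357, the smallest that 2 against 6 libraries can give, and the Benjamini-Hochberg value over these 6 quantities was the same. The labels name an mRNA library made from total RNA with a directional kit and do not say how rRNA was dealt with. A change in the amount of a mitochondrial RNA and a change in how it entered such a library cannot be told apart.

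**Figure D1:**
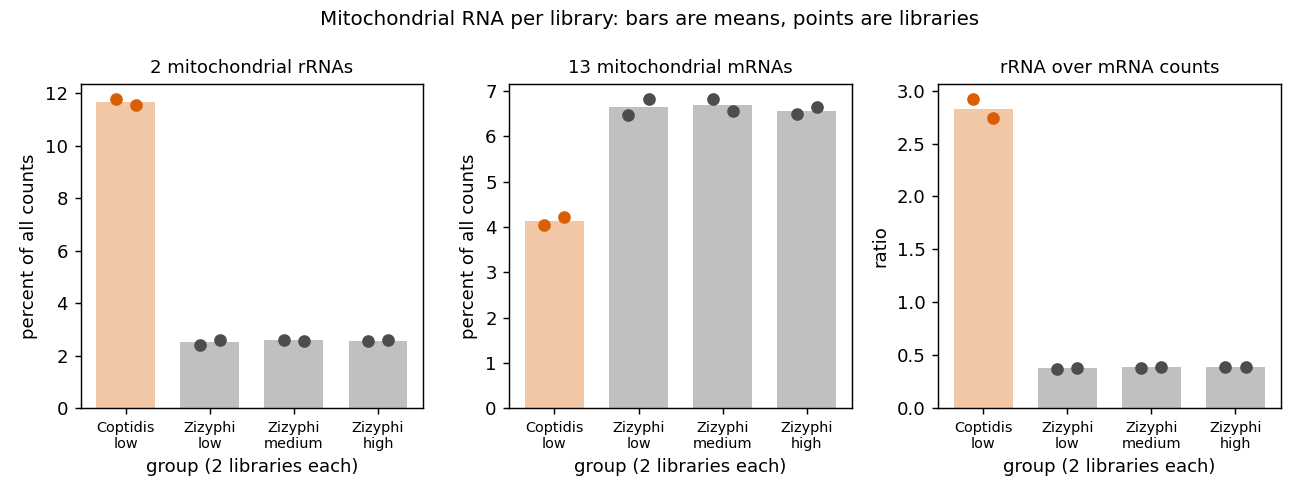
Mitochondrial RNA per library in the Coptidis low dose (orange, left) and at the 3 Zizyphi doses (grey). Points are libraries and bars are means of 2 libraries; the panels show the rRNAs and the mRNAs as percent of all counts and the ratio of rRNA to mRNA counts, which lay at 2.92 and 2.74 in the Coptidis low dose and between 0.373 and 0.392 in the Zizyphi libraries.

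MT-RNR1, the 12S rRNA of the small mitochondrial ribosomal subunit (chrMT:648-1601, plus strand, GRCh38), stood at 44364 and 45222 CPM in the Coptidis low dose, against 4723 to 5209 CPM (median 5046) in the Zizyphi libraries. Both Coptidis libraries were far above all 6 others, and the log2 fold change was 3.16 ± 0.07 (adjusted p 3.72e-32), or 8.93-fold. MT-RNR2, the 16S rRNA of the large subunit (chrMT:1671-3229), stood at 82904 and 80744 CPM in the Coptidis low dose, against 19177 to 20982 CPM (median 20601) in the Zizyphi libraries. It was 4.01-fold higher (log2 fold change 2.00 ± 0.05, adjusted p 9.53e-32). Per kilobase the 2 rRNAs were nearly level in the Coptidis low dose, with MT-RNR2 at 1.14 and 1.09 times MT-RNR1 in the 2 libraries, while it was at 2.43 to 2.58 times MT-RNR1 in the Zizyphi libraries. Of the 22 mitochondrial tRNAs, none had enough counts to be tested.

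The 13 mitochondrial mRNAs did not move alike along the genome. Of them 9 fell, 1 rose and 3 were not called, with a median log2 fold change of -0.85. Along the heavy strand the 2 genes nearest to the rRNAs had small differences: MT-ND1 stood at 0.26 ± 0.10 (adjusted p 0.0576) and MT-ND2 at -0.08 ± 0.10 (adjusted p 0.628). Both encode core subunits of complex I. The genes of cytochrome c oxidase and ATP synthase that follow were lower, with MT-CO1 at -0.44, MT-CO2 at -0.76, MT-ATP8 at -0.95, MT-ATP6 at -0.85 and MT-CO3 at -1.45. The next genes, which encode complex I subunits, were lower as well, with MT-ND3 at -1.75, MT-ND4L at -1.71 and MT-ND4 at -1.30, so that MT-ND3, MT-ND4L and MT-CO3 had the largest falls of the 13. Beyond MT-ND4 the difference was gone: MT-ND5 stood at -0.05 ± 0.12 (adjusted p 0.836), and MT-CYB, the subunit of complex III, rose by 0.25 ± 0.07 (adjusted p 0.00766). The call of MT-CYB was lost when replicate 2 or replicate 3 of the Coptidis low dose was left out (adjusted p 0.0866 and 0.0706), and against vehicle its difference was -0.055 (adjusted p 0.666). MT-ND6, which is encoded on the light strand between MT-ND5 and MT-CYB, fell by 0.89 ± 0.20 (adjusted p 0.000987).

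**Figure D2:**
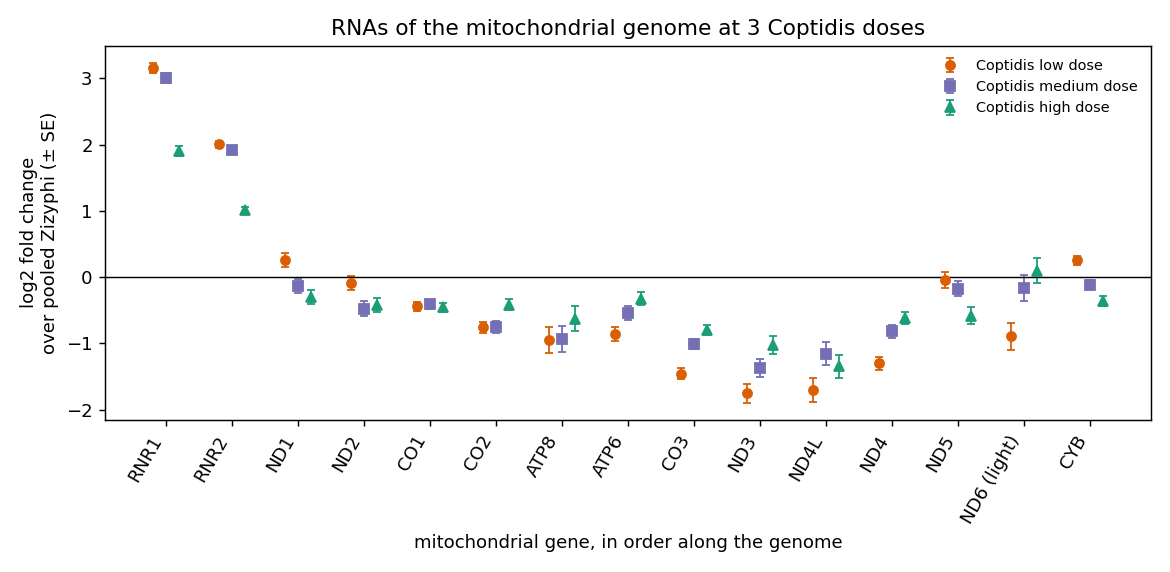
Log2 fold change over the pooled Zizyphi libraries (± SE) for the 2 rRNAs and 13 mRNAs of the mitochondrial genome, in genome order, at the low (circles), medium (squares) and high (triangles) Coptidis dose. At the low dose the values run from 3.16 at RNR1 through 0.26 at ND1 to -1.75 at ND3 and back to 0.25 at CYB; the light-strand gene ND6 is marked.

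MT-CO3 (chrMT:9207-9990) encodes a core subunit of cytochrome c oxidase, the last complex of the respiratory chain. It had 2831 and 3338 CPM in the Coptidis low dose, against 7799 to 9204 CPM (median 8417) in the Zizyphi libraries, a fall of 2.74-fold (adjusted p 1.37e-18). MT-ND3 (chrMT:10059-10404), a complex I subunit, had 602 and 578 CPM in the Coptidis low dose, against 1587 to 2284 CPM (median 2046) in the Zizyphi libraries, a fall of 3.36-fold (adjusted p 2.39e-12). In neither gene, both taken from the largest falls, did the groups overlap. Per kilobase MT-CO3 was the most abundant mRNA of the mitochondrial genome in the Zizyphi libraries, at 10779 ± 649 CPM per kb, while it stood at 3934 ± 457 CPM per kb in the Coptidis low dose, under MT-CO1 (6388 ± 100.0), MT-ND1 (6058 ± 658), MT-CO2 (5511 ± 371), MT-CYB (4991 ± 54.9) and MT-ND2 (4536 ± 89.5). Some neighbouring genes share bases, which RSEM divides between them: MT-ATP8 and MT-ATP6 overlap by 46 bases and MT-ND4L and MT-ND4 by 7. The junction of MT-ND4L and MT-ND4, which are carried on a shared mRNA and stood at -1.71 and -1.30, is shown from the GENCODE 29 transcripts (chrMT:10748-10777, plus strand, GRCh38), with the shared bases in capitals.
MT-ND4L and MT-ND4: aaacctactccaATGCTAAaactaatcgtc

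The mitochondrial rRNAs had their highest mean at the low Coptidis dose. MT-RNR1 averaged 44793, 40282 and 18819 CPM at the low, medium and high Coptidis dose, and MT-RNR2 averaged 81824, 76728 and 40999 CPM. The comparison of medium with low dose called 4822 genes, 28.9% of those tested (14.7% higher, 14.2% lower and 3.66% at least 2-fold), and that of high with low dose 10042 genes, or 60.2% (30.9% higher, 29.3% lower). Between medium and low dose neither rRNA was called (log2 fold change -0.15, adjusted p 0.283, and -0.09, adjusted p 0.332), and between high and low dose both fell, by 1.25 and 1.00 (adjusted p 1.82e-14 and 2.77e-17).  Several mRNAs also came nearer to the Zizyphi level as the dose rose. MT-CO3 was higher in the medium than in the low dose by 0.44 (adjusted p 0.000123) and in the high than in the low dose by 0.65 (adjusted p 2.72e-08), and MT-ND4 by 0.48 (adjusted p 0.000532) and 0.68 (adjusted p 5.9e-07). MT-ND6 was no longer apart from the Zizyphi libraries, at -0.16 and 0.10 at the medium and high dose. Over Zizyphi the medium dose called 51.0% of genes (9.55% at least 2-fold) and the high dose 69.7% (35.6% higher and 34.1% lower). The other 4 called between high and low dose were lower at the high dose: MT-CYB (-0.61, adjusted p 1.3e-07), MT-ND1 (-0.55, adjusted p 0.000214), MT-ND5 (-0.53, adjusted p 0.00171) and MT-ND2 (-0.34, adjusted p 0.0188). At the high dose 12 of the 13 mRNAs were lower than in the Zizyphi libraries, and at the low dose 9. The share of all 13 mRNAs together was nearly the same at the 3 doses, with means of 4.13, 4.17 and 4.26% from low to high dose.

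Nuclear genes for the mitochondrial machinery moved little against the Zizyphi libraries. Of 19 genes of mitochondrial DNA replication and transcription, 2 rose and 4 fell (median -0.09), beside 13.7% higher and 10.8% lower over all genes tested. Against vehicle 5 of the 19 were higher and 10 lower (median -0.24), beside 2859 higher and 2682 lower of all 16675 genes tested. The mitochondrial RNA polymerase POLRMT was at 92.9 and 117 CPM in the Coptidis low dose, against 79.0 to 88.2 CPM (median 83.3) in the Zizyphi libraries, and rose by 0.33 ± 0.07 (adjusted p 0.000212), a call that was lost without Coptidis replicate 3 (adjusted p 0.236) and with the length and GC offsets (adjusted p 0.0793). TOP1MT, the mitochondrial topoisomerase I, rose by 0.39 (adjusted p 2.41e-05). TFAM, which packages mitochondrial DNA and starts its transcription, was at 95.1 and 91.1 CPM in the Coptidis low dose, against 106 to 114 CPM (median 109) in the Zizyphi libraries, and fell by 0.23 ± 0.05 (adjusted p 0.000175). The nuclease MGME1 fell by 0.40 (adjusted p 5.87e-07), PRIMPOL by 0.40 (adjusted p 0.00236, and 0.143 without Coptidis replicate 2) and TEFM, the elongation factor of mitochondrial transcription, by 0.34 (adjusted p 0.00327). In none of these genes did the difference come near that of the rRNAs.

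Among all genes tested 13.7% were higher and 10.8% lower, and the counts that follow stand beside these shares. Of 33 genes of mitochondrial RNA processing and stability, 6 rose, 1 fell and 26 were not called (median 0.02). The risers were small: DDX28 (0.26), TBRG4 (0.23) and DHX30 (0.20), proteins of mitochondrial RNA granules, led them. SLIRP, a partner of LRPPRC in keeping mitochondrial mRNAs stable, fell by 0.44 ± 0.12 (adjusted p 0.00612), and LRPPRC itself stood at 0.10 (adjusted p 0.0821). Without Coptidis replicate 3 the genes just named were not called (adjusted p 0.665 for DDX28, 0.0659 for TBRG4, 0.126 for DHX30 and 0.0918 for SLIRP), and 1 gene of the list, PNPT1, was. Of 17 mitochondrial aminoacyl-tRNA synthetases 3 rose, led by MARS2 at 0.42 (adjusted p 1e-09), and none fell; without Coptidis replicate 3 it was 1. Among 16 mitochondrial chaperones and proteases 7 rose and 1 fell, with the proteases CLPP (0.39) and LONP1 (0.33) and the chaperone TRAP1 (0.27) higher and the small co-chaperonin HSPE1 lower (-0.54). The call of CLPP was lost without Coptidis replicate 3 (adjusted p 0.334).

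Nuclear subunits of the respiratory chain that were called were mostly lower. Of 37 nuclear complex I subunits 8 fell and none rose (median -0.12), and of 18 ATP synthase subunits 7 fell and none rose (median -0.22). Of 25 subunits of complexes II, III and IV, 6 fell and 1 rose (median -0.15). The riser, UQCRC2 (0.093, adjusted p 0.0426), was not called without Coptidis replicate 2 or replicate 3 (adjusted p 0.247 and 0.225), and in each of these settings 2 of the 25 fell. NDUFB1, an accessory subunit of complex I, had 14.1 and 13.7 CPM in the Coptidis low dose, against 20.8 to 31.6 CPM (median 26.7) in the Zizyphi libraries, and fell by 0.88 ± 0.17 (adjusted p 0.000107). Over all genes tested 10.8% were lower and 13.7% higher, and the share that fell lay near the first in the 2 lists of ribosomal proteins that follow. Among 78 mitochondrial ribosomal proteins 10 fell and 6 rose, among 24 import genes 9 fell and 3 rose, and among 84 cytosolic ribosomal proteins 13 fell and 1 rose. These counts rest in part on Coptidis replicate 3: without it 3 fell and 1 rose among the mitochondrial ribosomal proteins and among the import genes alike, and 6 cytosolic ribosomal proteins fell and none rose. Without Coptidis replicate 2 the direction did not hold, with 4 lower and 9 higher mitochondrial ribosomal proteins, 5 lower and 5 higher import genes, and 4 lower and 3 higher cytosolic ribosomal proteins. With the length and GC offsets described next, 11 mitochondrial ribosomal proteins were lower and 11 higher, and 15 cytosolic ribosomal proteins were lower and 10 higher. Many of these transcripts are short, and the 282 genes with transcripts of up to 1000 bases had a median of -0.14 in the same comparison. GC-rich genes moved with Coptidis replicate 3 more than with replicate 2: the fifth of genes with the highest GC content had medians of 0.24 in replicate 3 and 0.07 in replicate 2 over the Zizyphi mean. Whether length or GC content caused the lower values in these lists was not tested. With offsets for length and GC content, chosen after seeing the data, 9 complex I subunits were lower and 2 higher, 8 ATP synthase subunits were lower and none higher, and the counts for complexes II to IV were 3 and 3. Without replicate 3 or replicate 2 of the Coptidis low dose, 4 and 3 complex I subunits and 4 and 2 ATP synthase subunits fell.

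The AhR battery held the largest nuclear rise of a single well-measured gene. CYP1A1, the cytochrome P450 that oxidises planar aromatic compounds (chr15:74719542-74725610, minus strand), had 103 and 110.4 CPM in the Coptidis low dose, against 8.98 to 15.6 CPM (median 10.6) in the Zizyphi libraries. The groups did not overlap, and CYP1A1 rose 9.28-fold (log2 fold change 3.21 ± 0.11, adjusted p 2.82e-24). At the medium and high dose it averaged 1213 and 4727 CPM, so that the low dose lay near the foot of its range. Its neighbour CYP1A2 was hardly expressed, at 0.471 and 0.323 CPM in the Coptidis low dose against 0.0350 to 0.0798 CPM in the Zizyphi libraries, and rose by 2.87 ± 0.57 (adjusted p 0.000136). ALDH3A1, an aldehyde dehydrogenase, rose by 1.03 ± 0.28 (adjusted p 0.00436), AHRR, the repressor that AhR induces against itself, by 0.75 ± 0.24 (adjusted p 0.0247), and the quinone reductase NQO1, also a target of NRF2, by 0.48 ± 0.06 (adjusted p 5.69e-08).

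Other members of the battery were not called at this dose. In all, 5 of 8 AhR targets rose and none fell (median 0.89), and without Coptidis replicate 3 it was 3 of 8. The calls lost were those of ALDH3A1 (adjusted p 0.0633) and AHRR (adjusted p 0.213), and AHRR was also not called without replicate 2 (adjusted p 0.0910). CYP1B1 had 0.0785 and 0.0538 CPM in the Coptidis low dose, against 0.0398 to 0.135 CPM (median 0.0708) in the Zizyphi libraries. The groups overlapped and the gene was not detectably different at this depth (adjusted p 0.992), whereas it averaged 13.8 CPM at the high dose. TIPARP, a further AhR target, was at 24.0 and 20.2 CPM in the Coptidis low dose, against 21.1 to 23.0 CPM (median 21.9) in the Zizyphi libraries, and also not called (0.01, adjusted p 0.955), but was higher in the high than in the low dose by 1.29 (adjusted p 1.33e-14). The core letters that AhR binds, GCGTG, were searched on both strands, so that their complement counts too. The 250 bases before the start of CYP1A1 hold them at -57 to -53, in capitals and shown because this gene had the largest change of the battery (RefSeq, GRCh38.p14, chr15:74725529-74725778, minus strand).
CYP1A1: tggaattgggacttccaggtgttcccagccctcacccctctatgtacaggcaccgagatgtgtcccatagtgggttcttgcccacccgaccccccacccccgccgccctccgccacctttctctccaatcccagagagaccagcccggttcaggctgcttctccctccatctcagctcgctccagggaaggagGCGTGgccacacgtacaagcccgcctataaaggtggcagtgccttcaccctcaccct
Of the 5 AhR targets called, 4 had such a window and 2 of them, CYP1A1 and AHRR, held the letters. Of all 35116 single windows 32.2% did, which is a share per window and not per gene, and AHRR had 2 windows.

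The integrated stress response was the gene list that moved most completely among those with more than 20 members tested. Of 25 targets tested 22 rose and none fell, with a median of 0.75, and without Coptidis replicate 3 it was 18. GDF15, a stress hormone that acts on the brainstem to lower food intake (chr19:18374731-18389176, plus strand), had 412 and 505 CPM in the Coptidis low dose, against 136 to 160.2 CPM (median 148) in the Zizyphi libraries. It rose 3.09-fold (1.63 ± 0.08, adjusted p 1.6e-20). The groups did not overlap, which its choice from the largest rises required. ASNS, which makes asparagine (chr7:97852118-97872542, minus strand), had 89.6 and 96.0 CPM in the Coptidis low dose, against 27.9 to 41.8 CPM (median 30.2) in the Zizyphi libraries, and rose by 1.49 ± 0.06 (adjusted p 2.82e-24). ASNS is also the gene that differed among the pooled Zizyphi doses, at 40.5 and 41.8 CPM in the low dose, 29.9 and 30.5 CPM in the medium dose and 30.0 and 27.9 CPM in the high dose. Both Coptidis libraries were above all of these, which the choice of ASNS from the largest rises required. Against vehicle (mean 43.6 CPM) the rise was 1.09 (adjusted p 7.01e-17).

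ADM2, a peptide of the calcitonin family that is on no list, rose by 1.49 (adjusted p 8.38e-17). Within the list VLDLR, a lipoprotein receptor, by 1.47, SLC7A11, the cystine importer, by 1.41, and DDIT4, an inhibitor of mTORC1, by 1.22 (adjusted p 3.92e-09, 1.38e-18 and 3.38e-12). A middle group held the leucine sensor SESN2 (0.95), the mitochondrial folate enzyme MTHFD2 (0.86), the pseudokinase TRIB3 (0.85), the transcription factors CEBPB (0.83) and ATF3 (0.76), the secreted STC2 (0.81) and the phosphatase subunit PPP1R15A (0.75). ATF4 itself rose by 0.55 (adjusted p 1.09e-12). Its later effector DDIT3 (CHOP) had 16.1 and 16.8 CPM in the Coptidis low dose, against 11.6 to 13.6 CPM (median 12.0) in the Zizyphi libraries, and rose by 0.43 ± 0.11 (adjusted p 0.00244, and 0.0589 without Coptidis replicate 3). PHGDH, which opens serine synthesis, rose by 0.22 (adjusted p 0.00542, and 0.319 without Coptidis replicate 3), and PSPH (-0.10, adjusted p 0.264) and ALDH18A1 (-0.07, adjusted p 0.166) were not called. CHAC1 had 6 counts in the 2 Coptidis low-dose libraries together and 3 in the 6 Zizyphi libraries, too few for a call (adjusted p 0.0611). The cytosolic aminoacyl-tRNA synthetases, which load tRNAs with amino acids and many of which are ATF4 targets, rose in 16 of 20 cases and fell in none (median 0.25). MARS1 led them with 198 and 207 CPM in the Coptidis low dose, against 119 to 138 CPM (median 124) in the Zizyphi libraries (0.69 ± 0.03, adjusted p 1.6e-20).

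The 250 bases before 1 of the RefSeq starts of ASNS are shown because this gene was the best measured riser of the list and its promoter holds a known response element (GRCh38.p14, chr7:97872409-97872658, minus strand). The letters searched were TGATGNAA on both strands, where N is any base, chosen after the values were seen, and the capitals mark them at -68 to -61.
ASNS: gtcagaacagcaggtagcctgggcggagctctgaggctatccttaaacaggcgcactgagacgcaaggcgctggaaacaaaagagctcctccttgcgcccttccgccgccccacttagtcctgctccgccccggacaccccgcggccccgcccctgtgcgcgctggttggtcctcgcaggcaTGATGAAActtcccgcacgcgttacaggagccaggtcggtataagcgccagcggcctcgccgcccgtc
Of the 22 stress response targets called, 18 had a window in the table. In 3 of them, ASNS, ATF3 and CEBPG, 1 of 2 windows held these letters. Of all single windows 3.14% did, a share per window that cannot be set against a count of genes with several windows. The element of ASNS was known beforehand, so its match is no finding.

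**Figure D3:**
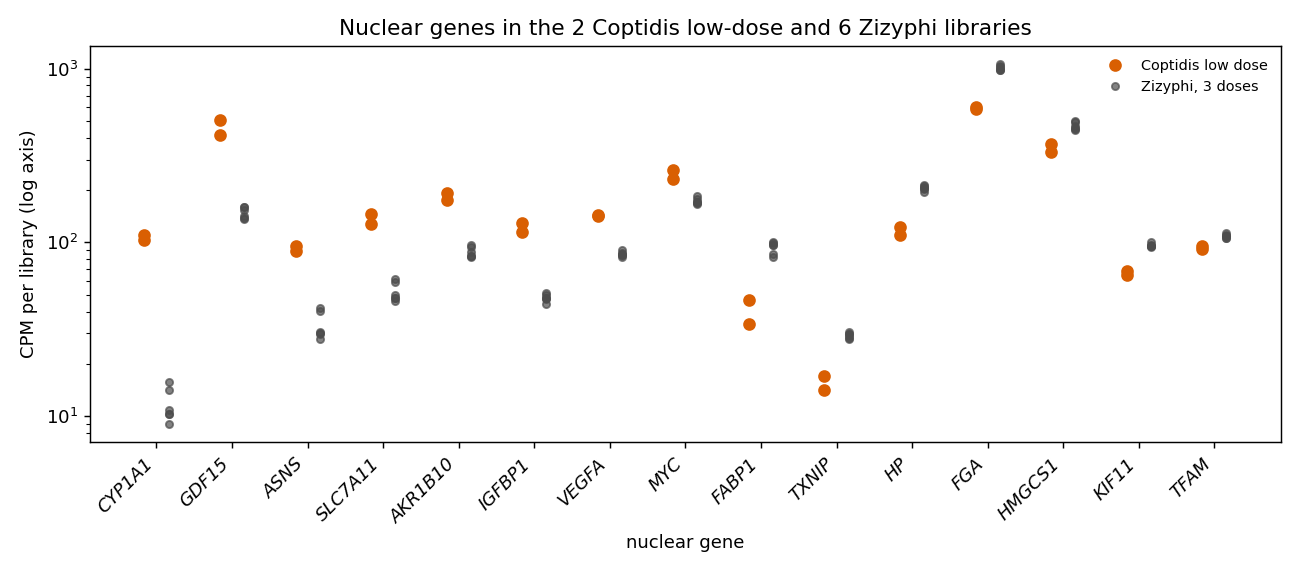
CPM per library on a log axis for 15 selected nuclear genes in the 2 Coptidis low-dose libraries (orange, left of each pair) and the 6 Zizyphi libraries (grey, right). Genes from CYP1A1 to MYC were higher and genes from FABP1 to TFAM lower in both Coptidis libraries than in every Zizyphi library. This adds no support, since some genes were taken by a rule that required no overlap and some after their values were seen.

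Targets of NRF2, the transcription factor that answers oxidants and electrophiles, rose in 15 of 19 cases and fell in 1 (median 0.30). Beside SLC7A11, the largest rises were those of AKR1B10, an aldo-keto reductase, at 175 and 192 CPM in the Coptidis low dose against 82.8 to 96.5 CPM (median 85.9) in the Zizyphi libraries (1.06 ± 0.05, adjusted p 7.25e-20), and of OSGIN1 (0.70, adjusted p 4.04e-10). HMOX1, heme oxygenase 1 and often read as an NRF2 marker, was the exception, at 49.4 and 53.6 CPM in the Coptidis low dose against 58.2 to 64.9 CPM (median 64.2) in the Zizyphi libraries, a fall of 0.29 ± 0.06 (adjusted p 6.8e-05). Against vehicle, HMOX1 stood at -0.13 (adjusted p 0.111), and it was higher in the high than in the low dose by 1.05 (adjusted p 3.23e-18). SQSTM1 (p62), an autophagy receptor that NRF2 also raises, rose by 0.81 ± 0.05 (adjusted p 7.98e-18) and led the lysosome and TFEB list, of which 8 of 21 rose and none fell. Without Coptidis replicate 3, 4 of these 21 rose. Of 9 targets of the drug receptors PXR and CAR 3 rose and none fell: the canalicular and basolateral export pumps ABCC2 (0.61) and ABCC3 (0.62) and the efflux pump ABCB1 (0.27, adjusted p 0.00191, and 0.124 without Coptidis replicate 2).

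Genes of cell division were lower without exception among those called. Of 20 mitosis genes 17 fell (median -0.29) and of 21 DNA replication genes 18 fell (median -0.25). KIF11, the motor that separates spindle poles, had 68.4 and 64.9 CPM in the Coptidis low dose, against 94.5 to 100.3 CPM (median 95.4) in the Zizyphi libraries, and fell by 0.53 ± 0.06 (adjusted p 1.62e-08). GINS1, a subunit of the replicative helicase, had 52.5 and 50.1 CPM in the Coptidis low dose, against 67.1 to 77.7 CPM (median 75.2) in the Zizyphi libraries, and fell by 0.52 ± 0.06 (adjusted p 1.8e-08). Fewer dividing cells and less of these RNAs per dividing cell cannot be told apart in bulk RNA. CDKN1A (p21), an inhibitor of cyclin-dependent kinases, was at 103 and 113 CPM in the Coptidis low dose, against 78.6 to 82.4 CPM (median 79.9) in the Zizyphi libraries, and rose by 0.43 ± 0.05 (adjusted p 8.49e-10). Against vehicle (mean 95.2 CPM) its rise was 0.19 (adjusted p 0.0051). Of 20 p53 targets, CDKN1A among them, 3 rose and 5 fell (median -0.10), with PLK3 at 0.72 the highest and BTG2 (-0.37), DDB2 (-0.31) and SESN1 (-0.30) the lowest of those called.

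Cholesterol synthesis, driven by the transcription factor SREBP2, was lower in 15 of 20 genes and higher in none (median -0.23). The values ran from -0.77 to 0.76, the latter not called. Against vehicle 10 were lower and 1 higher (median -0.16). Without Coptidis replicate 2 the median over Zizyphi was -0.18, and without replicate 3 it was -0.30. PMVK, phosphomevalonate kinase, had the largest fall, with 8.29 and 7.64 CPM in the Coptidis low dose against 10.9 to 16.1 CPM (median 14.3) in the Zizyphi libraries (-0.77 ± 0.16, adjusted p 0.00033). HMGCS1, the HMG-CoA synthase of the cytosol, had 367 and 333 CPM in the Coptidis low dose, against 443 to 499 CPM (median 463) in the Zizyphi libraries, and fell by 0.42 ± 0.05 (adjusted p 5.98e-09). MSMO1, a sterol methyl oxidase, had 183 and 189 CPM in the Coptidis low dose, against 231 to 251 CPM (median 246) in the Zizyphi libraries, and fell by 0.39 ± 0.05 (adjusted p 3.88e-08). In none of these 3 genes did the groups overlap, which their choice as the largest falls called in the list favours. Of 12 genes of fatty acid synthesis 4 fell and 1 rose, among them the desaturases FADS2 (-0.37) and FADS1 (-0.36). Chaperones of the ER, 10 of 16, fell and none of them rose (median -0.20), with SDF2L1 at -0.47 and MANF at -0.39. SDF2L1 stood at 0.10 against vehicle (adjusted p 0.692). The call of SDF2L1 was lost without Coptidis replicate 2 or replicate 3 (adjusted p 0.228 and 0.0541).

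**Figure D4:**
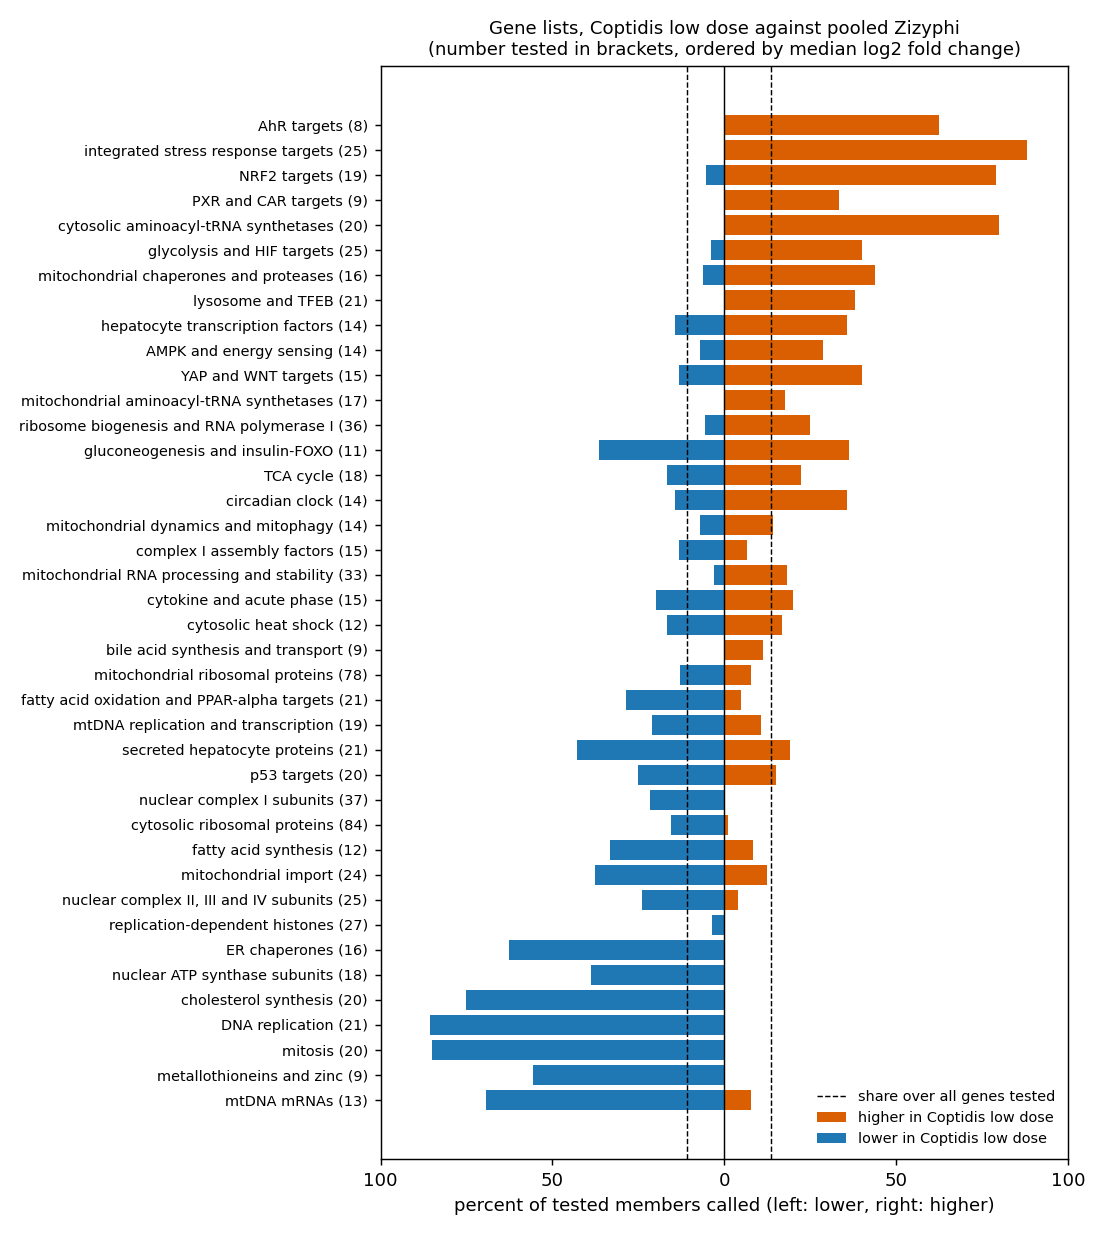
Percent of the tested members of each gene list that were called higher (orange, right) or lower (blue, left) in the Coptidis low dose than in the pooled Zizyphi libraries, ordered by median log2 fold change. Dashed lines mark the shares over all genes tested, 13.7% higher and 10.8% lower.

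Glucose handling genes changed on several sides. Of 25 genes of glycolysis and HIF targets 10 rose and 1 fell (median 0.18), and without Coptidis replicate 3 it was 5 and none. SLC2A1, the glucose transporter GLUT1, had 809.6 and 880.2 CPM in the Coptidis low dose, against 525 to 603 CPM (median 544) in the Zizyphi libraries, and rose by 0.61 ± 0.04 (adjusted p 1.08e-14). VEGFA, the angiogenic growth factor, rose by 0.73 ± 0.05 (adjusted p 1.06e-15). The phosphofructokinase PFKP rose by 0.55 (adjusted p 6e-06), while among further HIF targets BNIP3 (-0.08), PDK1 (0.07) and ADM (0.11) were not called. TXNIP, which restrains glucose uptake and is raised by glucose metabolites, had 17.0 and 14.1 CPM in the Coptidis low dose, against 27.7 to 30.5 CPM (median 29.3) in the Zizyphi libraries, and fell by 0.89 ± 0.07 (adjusted p 1.6e-13). Its relative ARRDC4, which, like TXNIP, is a target of the glucose sensor MondoA, fell by 0.81 ± 0.16 (adjusted p 0.000101). IGFBP1, a secreted binding protein that insulin lowers and stress raises, had 115 and 129.7 CPM in the Coptidis low dose, against 44.3 to 50.9 CPM (median 47.6) in the Zizyphi libraries, and rose by 1.35 ± 0.13 (adjusted p 9.27e-11). PCK1, the cytosolic enzyme of gluconeogenesis, fell by 0.58 (adjusted p 0.00232, and 0.129 without Coptidis replicate 2), whereas the mitochondrial PCK2, an ATF4 target, rose by 0.49 (adjusted p 1.2e-09).

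Secreted proteins of the hepatocyte were split, with 9 of 21 lower and 4 higher (median -0.10), and without Coptidis replicate 3, 9 lower and none higher. The 3 fibrinogen chains fell together. FGA had 588 and 602 CPM in the Coptidis low dose, against 979.9 to 1064 CPM (median 1011) in the Zizyphi libraries (-0.77 ± 0.05, adjusted p 1.27e-16), and FGG and FGB stood at -0.76 and -0.66. Haptoglobin (HP), another acute phase protein, fell by 0.82 ± 0.08 (adjusted p 5.55e-11), with 110.4 and 123 CPM in the Coptidis low dose against 195 to 214 CPM (median 206) in the Zizyphi libraries. FABP1, the fatty acid binding protein of liver, fell to 46.7 and 33.9 CPM in the Coptidis low dose, against 82.2 to 100.2 CPM (median 96.6) in the Zizyphi libraries (adjusted p 3.68e-08). KNG1, the precursor of bradykinin, fell by 1.13 ± 0.13 (adjusted p 1.03e-08). Among transcription factors of the hepatocyte, 5 of 14 rose and 2 fell: the repressor NR0B2 (SHP) rose by 0.72 ± 0.08 (adjusted p 3.92e-09) and the bile acid receptor NR1H4 (FXR) fell by 0.53 ± 0.06 (adjusted p 1.32e-08). Without Coptidis replicate 3, 2 of these 14 rose and 1 fell.

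Of 9 genes for metallothioneins and zinc transport, 5 fell and none rose (median -0.56). The 5 were metallothioneins, small zinc-binding proteins: MT1M (-0.69), MT1F (-0.64), MT1X (-0.61), MT1G (-0.58) and MT1E (-0.56). The call of MT1M was lost without Coptidis replicate 2 or replicate 3 (adjusted p 0.148 and 0.164). MT1F had 35.9 and 43.4 CPM in the Coptidis low dose, against 49.6 to 70.3 CPM (median 62.3) in the Zizyphi libraries (-0.64 ± 0.10, adjusted p 2.61e-06), and these genes are close paralogs among which reads may be divided. Against vehicle, 4 of the 9 fell and the median was -0.12. In the clock list 5 of 14 rose and 2 fell, with BHLHE40 at 0.90 ± 0.13 (adjusted p 6.61e-07). MYC, the growth regulator that raises ribosome production, rose by 0.51 ± 0.05 (adjusted p 1.52e-11). Of 36 genes of ribosome biogenesis 9 rose and 2 fell (median 0.04), beside 13.7% higher and 10.8% lower over all genes tested. Against vehicle 7 of them rose and 7 fell (median 0.03), and a link to MYC was not tested. Without Coptidis replicate 3, 3 of these 36 rose and none fell.

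The remaining lists moved in few members or in both directions. Among all genes tested 13.7% were higher and 10.8% lower, and several of these lists lay near those shares. Of 18 TCA cycle genes 4 rose and 3 fell, of 21 genes of fatty acid oxidation and PPAR-alpha 1 rose and 6 fell, and of 14 genes of mitochondrial dynamics and mitophagy 2 rose and 1 fell. Complex I assembly factors rose in 1 and fell in 2 of 15 cases, and cytosolic heat shock genes rose in 2 and fell in 2 of 12. Of 14 AMPK genes 4 rose and 1 fell, of 15 YAP and WNT targets 6 rose and 2 fell, and of 15 cytokine and acute phase genes 3 rose and 3 fell. Among 9 genes of bile acid synthesis and transport 1 rose, and among 27 replication-dependent histone genes, whose mRNAs mostly lack poly(A) tails, 1 fell. Without Coptidis replicate 3, 2 TCA cycle genes rose and none fell, none of the fatty acid oxidation genes rose and 4 fell, and no gene of mitochondrial dynamics was called. In the same setting 1 complex I assembly factor fell and none rose, 1 heat shock gene rose and 2 fell, 2 AMPK genes rose and 1 fell, 4 of the YAP and WNT targets rose and 1 fell, and 2 cytokine and acute phase genes rose and 3 fell.

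Of the 8 largest rises and 8 largest falls among genes of at least 5 CPM, 6 were mitochondrial and 3 rest on uncertain counts. INO80B-WBP1, a read-through transcript of a pair of neighbouring genes, had 5.66 and 6.78 CPM in the Coptidis low dose and no counts in the 6 Zizyphi libraries, at least 318-fold higher with a floor of 3 counts over the Zizyphi group. Its reads are shared with both neighbours. EIF3CL, a near copy of EIF3C, was at 246 and 330.2 CPM in the Coptidis low dose against 1.53 to 179.9 CPM (median 21.9) in the Zizyphi libraries, and its call was lost without Coptidis replicate 3 (adjusted p 0.124). The pseudogene ACSL3P1 stood at -1.35 and may hold reads of ACSL3. SEC61G, a small subunit of the ER translocon, fell by 1.14 ± 0.21 (adjusted p 6.04e-05), with 27.3 and 26.5 CPM in the Coptidis low dose against 41.7 to 73.4 CPM (median 63.6) in the Zizyphi libraries.

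The medians of the leading nuclear lists lay further from 0 at the higher doses, while some single genes did not follow dose. All dose comparisons share the low-dose libraries, and those with Zizyphi share the 6 Zizyphi libraries, so their values are given side by side only. The list medians over Zizyphi stood at 0.75, 1.44 and 1.79 from low to high dose for the stress response targets, at 0.89, 3.15 and 7.05 for the AhR targets and at 0.30, 0.59 and 1.39 for the NRF2 targets. For mitosis genes they stood at -0.29, -1.21 and -2.24, for DNA replication at -0.25, -0.95 and -2.05, and for cholesterol synthesis at -0.23, -1.32 and -2.18. Within the stress response list 19 of 25 genes were higher and 1 lower in the medium than in the low dose, and all 20 mitosis genes were lower. Over all genes tested that comparison called 14.7% higher and 14.2% lower.

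SLC2A1 stood at much the same level at all doses, with means of 845, 864 and 814 CPM from low to high dose and no call between medium and low (adjusted p 0.733) or high and low dose (adjusted p 0.435). ATF4 averaged 473, 502 and 649 CPM, without a call between medium and low dose (adjusted p 0.304). TXNIP and ARRDC4 were lower than in the Zizyphi libraries at the low dose. At the other doses ARRDC4 stood near them, while TXNIP was higher than in them at the medium dose (adjusted p 0.000379) and not called at the high dose (adjusted p 0.669). TXNIP stood at -0.89, 0.26 and -0.03 over Zizyphi from low to high dose and was higher in the medium than in the low dose by 1.16 (adjusted p 1.64e-15), and ARRDC4 averaged 2.16, 4.36 and 4.18 CPM (medium over low 1.01, adjusted p 2.26e-05). HMOX1 was lowest at the medium dose, at 51.5, 39.7 and 106 CPM from low to high dose.

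**Figure D5:**
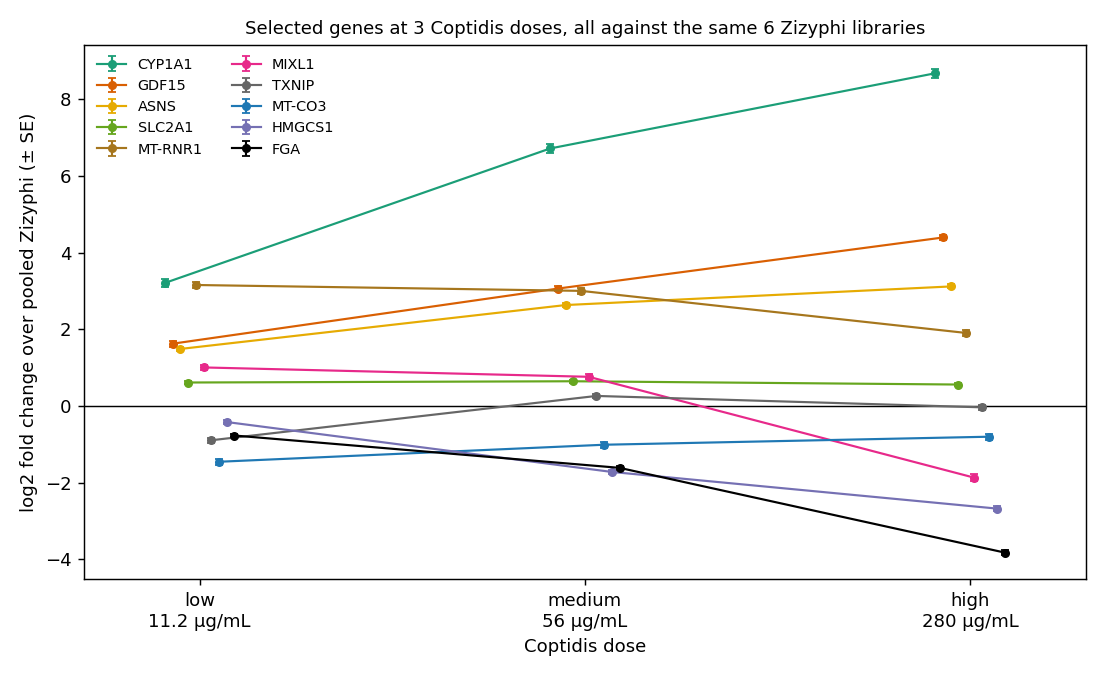
Log2 fold change over the same 6 Zizyphi libraries (± SE) for 10 selected genes at 11.2, 56 and 280 µg/mL of Coptidis. CYP1A1, GDF15, ASNS, HMGCS1 and FGA moved further from 0 with dose, MT-RNR1 and MT-CO3 came nearer to 0, SLC2A1 stayed between 0.56 and 0.65, and TXNIP and MIXL1 changed sign.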

How the data were processed

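The deposited table holds RSEM expected counts per gene, which the authors did not normalize. Per the submitters' processing notes, RSEM 1.3.3, STAR 2.7.3a, Trim Galore 0.6.5 and FastQC 0.11.9 were used on GRCh38, with no annotation release named there. Of 267 columns, 207 match none of the 60 samples and were left aside. Expected counts were rounded (8.75% were not whole). Names matched 56558 of 60675 IDs; positions are from GENCODE 29 on GRCh38. Because RSEM shares out reads among the genes they fit, paralogs, pseudogenes and read-through transcripts are uncertain.

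One edgeR model covered 57 libraries in 22 groups with replicates (edgeR 4.0.16 in R 4.3.3, TMM, robust glmQLFit, glmQLFTest, 35 residual degrees of freedom, common BCV 6.14%). The filter by group kept 16675 genes and left out 44000. The contrast was the Coptidis low dose minus the mean of the 3 Zizyphi coefficients, with Benjamini-Hochberg adjustment over all genes tested and a threshold of 0.05. The SE was taken as |log2 fold change| over the root of F. Library totals limit the precision of low counts.

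The comparison, the members and the 46 gene lists were chosen with earlier results of these data known; some genes are not reported here and are left out of the lists. Named genes are a panel (mitochondrial genes, CYP1A1, CYP1B1, HMOX1, DDIT3, CDKN1A, ALB), the 8 largest rises and falls at 5 CPM or more with no overlap, and up to 3 called members per list with at least 3 called, plus the largest the other way; all other genes named with their values, such as AHRR, TIPARP, CHAC1, ATF4, TFAM, POLRMT and PNPT1, were chosen after their values were seen. Same-numbered Coptidis low-dose and Zizyphi libraries did not deviate together (correlations 0.047 to 0.0893), so replicate numbers were not used as pairs. The sample labels and the series text differ in the DMSO concentration, which was not settled. DESeq2 1.42.0 was an alternative.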

Additional observations from a re-analysis of the deposited data

Results flagged for a closer look

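Among 175 sets of values over the 6 Zizyphi libraries, 5 held a library that stood apart from the other 5 by Dixon's test at the 95% level; chance flags about 1 in 20 sets. In replicate 2 of the Zizyphi medium dose PINK1 was lowest at 15.2 CPM (the others 17.6 to 18.5) and KIF11 highest at 100.3 CPM (94.5 to 96.0). In replicate 2 of the Zizyphi high dose MANF was lowest at 88.3 CPM (95.1 to 98.9). In replicate 2 of the Zizyphi low dose ICAM1 was highest at 96.9 CPM (85.3 to 89.5) and the mitochondrial rRNA share lowest at 2.41% (2.55 to 2.61%). For each of these values both Coptidis low-dose libraries lay beyond all 6 Zizyphi libraries.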

How the results depend on the processing

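The count of 4091 genes for the low dose against Zizyphi was 2677 against the Zizyphi high dose alone and ran from 2003 to 4065 when 1 library was left out, lowest without replicate 3 of the Coptidis low dose. It stayed within 1.5 times under the other settings, among them 4088 with RLE scaling, 4070 with scaling on nuclear genes, 3744 without the filter (33790 genes), 4061 with DESeq2, 2908 with set 11 alone, 4483 with the 8 libraries alone, 5416 without Bupleuri low-dose replicate 3, 5541 against vehicle, and 4399 with length and GC offsets, added after seeing the data. With the replicate block it was 4098. The counts of medium against low dose ran from 3492 to 4454 and of high against low from 8998 to 9201 when 1 library was left out. The count among Zizyphi doses was 1, and 110 without the filter, 0 with set 11 alone, 2 without Bupleuri low-dose replicate 3, 2 with the offsets and 0 to 1 when 1 library was left out. The mitochondrial difference of 6.61 percentage points ran from 6.54 to 6.65 when 1 library was left out; with 1 Coptidis library (6.58 and 6.63) the smallest exact p the design allows is 0.143. Of the named genes that were called, 4 changed sign: MT-CYB (-0.055) and SDF2L1 (0.10) against vehicle, and VARS2 (-0.057) and SREBF1 (-0.013) with the offsets; the cause was not tested. Of the 180 named genes, 49 that had been called were not called without Coptidis replicate 3, 26 without replicate 2, 39 with set 11 alone, 18 with the offsets, 2 with the replicate block and none with DESeq2 or RLE scaling.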

Other observations

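Some genes outside the lists, chosen after their values were seen, also differed between the Coptidis low dose and the Zizyphi libraries. EGR1, an immediate early transcription factor, had 25.5 and 25.1 CPM in the Coptidis low dose against 9.67 to 12.9 CPM (median 11.2) in the Zizyphi libraries, a rise of 1.19 ± 0.08 (edgeR adjusted p 1.85e-15). SPRY4 and DUSP6, feedback inhibitors of ERK signalling, rose by 1.00 and 0.98 (adjusted p 3.93e-14 and 1.37e-18), FOSL1, a partner of JUN, by 1.01 (adjusted p 1.62e-14), and IER3 by 0.96 (adjusted p 5.12e-11). In each of these 5 genes both Coptidis libraries lay above all 6 Zizyphi libraries, which adds no support, since the genes were chosen after their values were seen. At the medium and high dose EGR1 stood at 2.93 and 5.08 over Zizyphi, and DUSP6 at 1.60 and 2.45.

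JDP2, a repressor of the AP-1 family, rose by 1.34 ± 0.11 (adjusted p 1.23e-12) and LGALS3, a galactose-binding lectin, by 1.02 ± 0.06 (adjusted p 7.24e-17). MIXL1, a homeobox gene of the early embryo, had 47.1 and 49.4 CPM in the Coptidis low dose against a median of 23.8 CPM in the Zizyphi libraries, all of them lower, a rise of 1.01 ± 0.07 (adjusted p 1.42e-15). It averaged 48.3, 40.7 and 6.58 CPM from the low to the high dose, and high against low dose was a fall of 2.87 on the log2 scale (adjusted p 1.26e-26).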
